A study of Mus musculus with 12 samples.

Results

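The mechanotransduction channel and tip link genes of the mouse cochlea were followed here as 10 genes: *Tmc1*, *Tmc2*, *Lhfpl5*, *Tmie*, *Cib2*, *Pcdh15*, *Cdh23*, *Ush1c*, *Myo7a* and *Loxhd1*. They were chosen by name, and each was found once among the 37432 genes of the deposited expression table. RNA-seq had been performed on cochleae of wild-type males and of *Gjb2* 35delG homozygous males at P14, each cochlea being cut into 3 sections of equal size called the apical, middle and basal turns. *Gjb2* encodes the gap junction protein connexin 26, and both of its alleles carried the 35delG deletion in the homozygotes, which the labels also name KO. The 6 groups (2 genotypes, 3 turns) held 2 libraries each, so 12 libraries were compared. The homozygotes were grown wholly from embryonic stem cells by tetraploid complementation, were delivered by cesarean section and were nursed by ICR females, on a background close to C57BL/6J. Age-matched wild-type males were bought in, so genotype and origin of the animals cannot be told apart. The repeats of a group are described as biological. More than 1 homozygous stem cell line was used to make animals, but nearly all homozygotes that lived past the age sampled here came from 1 of them, and which line and how many animals stand behind each library are not given in the sources used here. Nor is it given whether the turns of a genotype came from the same animals, and the fit treats the 12 libraries as independent.

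Mechanotransduction takes place at the tips of the hair cell stereocilia, the actin-filled projections that sound bends. A tip link of cadherin 23 and protocadherin 15 connects each stereocilium with its taller neighbour, and tension in the link opens the channel. The channel is built on TMC1, which takes over from TMC2 in the maturing cochlea, together with LHFPL5, TMIE and CIB2. At the upper end of the link cadherin 23 is held by a complex that includes harmonin, the product of *Ush1c*, and myosin VIIA. Mutations in these genes other than *Tmc2* cause deafness in mice and humans.

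Levels are given as scaled FPKM, that is, fragments per kilobase of transcript, normalised to the number of mapped fragments, divided by 1 factor per library that ran from 0.917 to 1.06. FPKM is a level per length, so genes can be set side by side. Differences are given as log2 fold changes of scaled FPKM + 1 (homozygous minus wild-type where genotypes are compared) from limma, with Benjamini-Hochberg adjustment over 16215 genes, each with a value of at least 1 FPKM in at least 2 libraries. A gene was called changed at an adjusted p under 0.01 and a change over 2-fold. Of the 10 genes, 9 entered the test and *Tmc2* did not. Read depth is unknown in these values, so the repeats are the only measure of precision, and the added 1 makes a fold change of a low gene smaller than it was.

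Promoter windows of 4 of the genes are shown, *Ush1c* and *Tmc1* because their levels were far lower in the basal turn of homozygotes, *Cib2* and *Tmie* because theirs were not. The windows come from RefSeq on GRCm38.p6 and run 5′ to 3′ on the strand of the gene across its annotated start. They are chr7:46238441-46238740 for *Ush1c*, chr19:20954153-20954452 for *Tmc1*, chr9:54560141-54560440 for *Cib2* and chr9:110880024-110880323 for *Tmie*, all on the minus strand. Capitals mark the E-box CANNTG, the 6 letters that basic helix-loop-helix factors such as ATOH1 read.
Ush1c: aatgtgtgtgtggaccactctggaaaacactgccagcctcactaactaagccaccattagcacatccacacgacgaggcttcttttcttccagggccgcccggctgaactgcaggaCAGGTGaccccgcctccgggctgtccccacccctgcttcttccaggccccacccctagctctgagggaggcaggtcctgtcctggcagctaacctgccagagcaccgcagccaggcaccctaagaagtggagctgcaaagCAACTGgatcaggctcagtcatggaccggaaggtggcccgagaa
Tmc1: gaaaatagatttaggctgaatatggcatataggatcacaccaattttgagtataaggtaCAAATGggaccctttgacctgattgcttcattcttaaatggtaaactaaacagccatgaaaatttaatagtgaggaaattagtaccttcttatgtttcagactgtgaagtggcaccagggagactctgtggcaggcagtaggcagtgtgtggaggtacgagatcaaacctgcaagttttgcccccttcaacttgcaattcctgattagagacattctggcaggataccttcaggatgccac
Cib2: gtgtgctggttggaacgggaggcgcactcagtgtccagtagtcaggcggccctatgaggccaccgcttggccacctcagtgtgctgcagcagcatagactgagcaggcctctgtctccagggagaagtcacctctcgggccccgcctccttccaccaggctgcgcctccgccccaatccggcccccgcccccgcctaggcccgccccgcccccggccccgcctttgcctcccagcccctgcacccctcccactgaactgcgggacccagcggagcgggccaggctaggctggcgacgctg
Tmie: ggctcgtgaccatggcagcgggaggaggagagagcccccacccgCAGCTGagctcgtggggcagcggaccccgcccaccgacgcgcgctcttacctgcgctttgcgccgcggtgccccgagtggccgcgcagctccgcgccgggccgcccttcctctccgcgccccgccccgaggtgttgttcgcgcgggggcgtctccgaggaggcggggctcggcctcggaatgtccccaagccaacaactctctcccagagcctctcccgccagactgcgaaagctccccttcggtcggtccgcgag
The E-box, which reads the same on both strands, was found 2 times in the *Ush1c* window, 1 time in those of *Tmc1* and *Tmie* and not in that of *Cib2*, and 72.3% of all 32851 windows in the RefSeq table hold it. The base composition differed more, with 42% G and C in the *Tmc1* window, 60.7% in *Ush1c*, 71.3% in *Cib2* and 73.7% in *Tmie*, beside a median of 52.7% and quartiles of 45.7% and 61.7% over all windows. Windows were found for 8 of the 10 genes, all but *Tmc2* and *Loxhd1*, and *Myo7a* had 2 of them. The windows not shown held 70.7% G and C for *Lhfpl5*, 62% and 58% for *Myo7a*, 54% for *Cdh23* and 50.7% for *Pcdh15*. *Lhfpl5*, with a high share, had lower basal values in homozygotes without overlap, while the basal values of *Cdh23* overlapped. A link between base composition and level was not tested. TATAAA, searched on both strands as were the next motifs, was in the *Pcdh15* window and in no other of the 9 windows. It was in 13.6% of all windows. None of the 9 held CAGATG (17.2% of all windows, itself an E-box), AATTAAT (2.63%) or AAATCA (14%).

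In the deposited annotation on mm10 (the GRCm38 assembly) all 10 are protein-coding genes. *Tmc1* lies at chr19:20783458-20954202 on the minus strand, and the GENCODE M21 model of its longest coding transcript has 21 exons and 757 codons. *Ush1c* lies at chr7:46195350-46238503 on the minus strand with 27 exons and 910 codons, and *Myo7a* on the same chromosome and strand at chr7:98051060-98119524 with 49 exons and 2215 codons. The cadherins are the long genes of the group, *Cdh23* at chr10:60302748-60696490 on the minus strand with 71 exons and 3354 codons, and *Pcdh15* at chr10:73821867-74649737 on the plus strand with 35 exons and 1943 codons. *Lhfpl5* at chr17:28575641-28585679 on the plus strand has 219 codons, *Cib2* at chr9:54544794-54560218 on the minus strand 187 and *Tmie* at chr9:110865711-110880113 on the minus strand 153. *Tmc2* lies at chr2:130195194-130264445 on the plus strand with 19 exons and 888 codons, and *Loxhd1* lies on chromosome 18 with 40 exons and 2216 codons.

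Exons of 3 of the 10 genes overlap exons of a gene on the opposite strand, *Ush1c* with *Gm9860* over 120 bases, *Tmie* with *Als2cl* over 244 bases and *Cib2* with *Sh2d7* over 227 bases. Whether strand was used in the counting is not given in the sources used here, and without it reads in these stretches cannot be told apart. The highest level of *Sh2d7* was 0.126 scaled FPKM. *Als2cl* ran from 2.93 to 12 and moved with *Tmie* (Pearson's r = 0.75 over the 12 libraries on the log2 scale), and *Gm9860* ran from 0.00923 to 17.9 and moved with *Ush1c* (r = 0.95). Values of *Tmie* and *Ush1c* therefore carry this uncertainty.

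Cell type markers differed between libraries that share a turn label, and all results below stand beside these values. The summed level of 16 hair cell markers, which include the transcription factor *Pou4f3* and the otoferlin gene *Otof*, was 691 and 675 in the wild-type apical libraries and 415 and 359 in the homozygous ones. It was 71.3 and 172 in wild-type middle, 275 and 477 in homozygous middle, 218 and 229 in wild-type basal, and 38 and 56.5 in homozygous basal libraries. *Pou4f3* was listed at 0 in 1 homozygous basal library and was 0.439 in the other, and *Slc26a5*, the prestin gene of outer hair cells, was 0.0509 and 0 there. Wild-type values of *Slc26a5* were 27.1 and 27.5 in apical, but only 0.0255 and 0.876 in middle and 0.594 and 1.44 in basal libraries. In homozygotes *Slc26a5* was 18.5 and 12.5 in apical and 7.78 and 11.7 in middle libraries. The sum of 10 neuron markers ran the other way, with 1490 and 1700 in wild-type middle against 362 and 46.4 in homozygous middle, and 10.6 and 833 in wild-type basal against 2840 and 3220 in homozygous basal libraries. Central glia markers (7 genes, with the oligodendrocyte factor *Olig2* among them) summed to 1020 in wild-type middle 1, 317 in wild-type basal 2, and 322 and 482 in homozygous basal libraries, and to at most 14.5 in the other 8. Middle and basal pieces of the genotypes thus lay on opposite sides for hair cell and nerve markers, and the part of this in the results on the 10 genes was not tested. *Gjb2* itself was 434 and 256 in wild-type basal and 126 and 58.6 in homozygous basal libraries. It was 248 and 254 against 332 and 376 in the apical turn, and 140 and 268 against 256 and 451 in the middle turn. By qPCR at P14 the study reported reduced *Gjb2* RNA in the homozygous cochlea, without a split by turn. Here homozygous values were lower in the basal turn, higher in the apical turn and overlapped in the middle turn. The cause of this difference from the qPCR was not tested. A deletion of 1 base cannot be read from these levels.

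**Figure D1:**
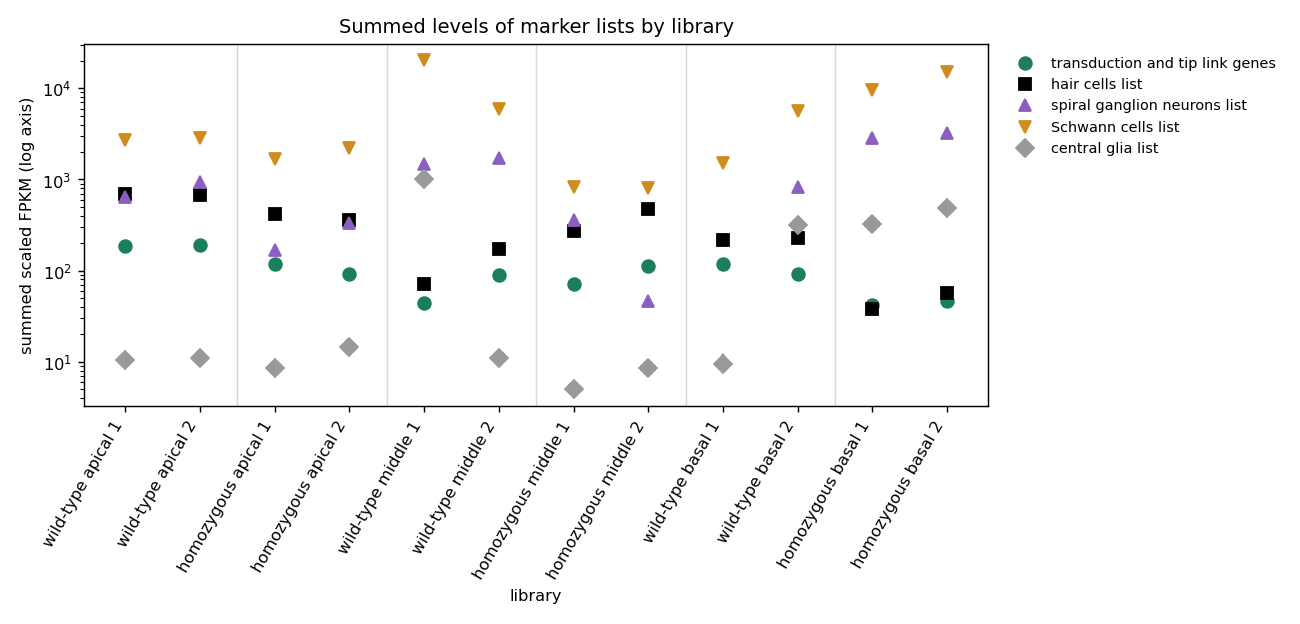
Summed scaled FPKM (log axis) of the 10 transduction and tip link genes and of 4 marker lists in each of the 12 libraries, 1 point per list and library. The 10 genes and the hair cell markers are lowest in homozygous basal and wild-type middle 1 libraries, where Schwann cell markers sum to between 9500 and 20200.

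In the wild-type cochlea 8 of the 10 genes had their highest values in the 2 apical libraries, and *Tmie* (6.77) and *Tmc2* (0.47) had theirs in wild-type basal 2. *Cib2*, whose product binds calcium and the TMC proteins, and *Ush1c* were the most abundant, with 61.8 ± 2.62 and 58.4 ± 1.75 scaled FPKM (SD, n = 2) in the apical turn. *Lhfpl5*, which encodes a partner of protocadherin 15 in the channel complex, followed with 21.6 ± 0.102, then *Myo7a* with 13.7 ± 0.214, *Tmc1* with 9.6 ± 0.647 and *Loxhd1*, whose PLAT domain protein lies along the stereocilium membrane, with 8.05 ± 0.233. *Pcdh15* (5.96 ± 0.554), *Cdh23* (5.73 ± 0.199) and *Tmie* (5.03 ± 0.0662) were lowest of the 9. The neighbours *Cib2* and *Ush1c*, and *Pcdh15* and *Cdh23*, had values that differed by about as much as the repeats did. *Tmc2* was listed at 0 in both wild-type apical libraries.

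*Tmc2* was listed at 0 in 8 of the 12 libraries. It was 0.0847 and 0.0614 scaled FPKM in the homozygous apical libraries, 0.00696 in 1 homozygous basal library and 0.47 in wild-type basal 2. *Tmc1* was between 0.245 and 10.1 in all 12. In wild-type basal 2, 2 paralogues stood apart in the same way, *Cib3* with 17.9 against at most 0.486 elsewhere and *Tmc5* with 2.82 against at most 0.124.

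**Figure D2:**
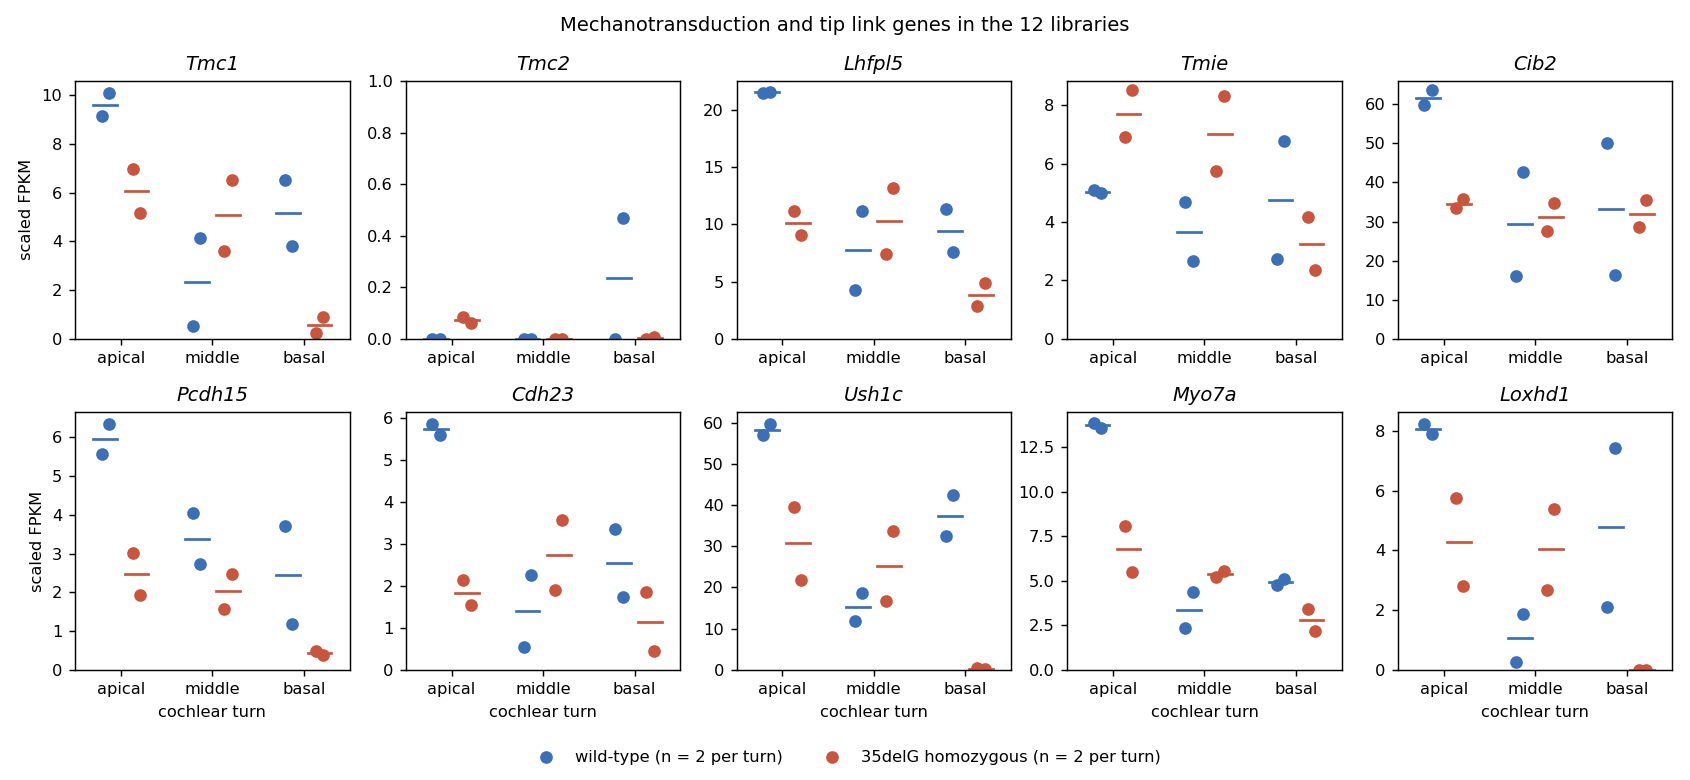
Scaled FPKM of each of the 10 genes by cochlear turn, with 1 point per library (n = 2 per group), a bar at the group mean, and a vertical axis of its own from 0 for each gene. *Ush1c* and *Loxhd1* lie at the floor of their axes in homozygous basal libraries, where *Cib2* is 28.5 and 35.6.

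The question asked in each turn was how these genes differed between homozygous and wild-type libraries. In the basal turn *Ush1c* was lower in homozygotes, most of the other genes had lower values without being called, and *Cib2* had nearly equal means in both genotypes. *Ush1c*, which encodes the scaffold protein harmonin, was 32.4 and 42.5 scaled FPKM in wild-type basal libraries and 0.39 and 0.102 in homozygous ones. The homozygous mean of 0.246 ± 0.204 was 0.658% of the wild-type mean of 37.4 ± 7.17 (SD, n = 2). The log2 fold change was -4.94 with an SE of 0.38 (limma, adjusted p = 0.000831). It was the 1 called gene of the 9, and 4.29% of all genes were called in this turn, 1.76% as lower. The call was lost when the 4 basal libraries were fitted alone (adjusted p = 0.128). *Gm9860*, the gene that shares 120 exon bases with it on the other strand, was 5.1 and 7.97 in wild-type basal and 0.0624 and 0.00923 in homozygous basal libraries.

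*Loxhd1* was 2.12 and 7.44 scaled FPKM in wild-type basal libraries and was listed at 0 and 0.00652 in homozygous ones. Every wild-type value lay above every homozygous value, yet the wild-type repeats were 3.51-fold apart. The log2 fold change of -2.35 with an SE of 0.54 depends on the added 1 and was not called (limma, adjusted p = 0.0198). *Tmc1*, the gene of the channel subunit itself, was 6.52 and 3.81 in the wild-type against 0.245 and 0.879 in the homozygous libraries. Its groups did not overlap either, the homozygous mean was 10.9% of the wild-type mean, and the log2 fold change of -1.97 with an SE of 0.52 was not called (limma, adjusted p = 0.0329). The study, using DESeq2 on counts at the same thresholds, named *Tmc1* among genes significantly down-regulated in the basal turn. It reported more changed genes in each turn than were called here, so a gene not called here is not thereby unchanged.

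*Pcdh15*, the lower part of the tip link, was 3.71 and 1.18 in the wild-type against 0.494 and 0.38 in the homozygous basal libraries. The homozygous mean was 17.9% of the wild-type mean (log2 fold change -1.16, SE 0.36, limma, adjusted p = 0.0535). Both wild-type basal libraries moved this value. Without wild-type basal 2 *Pcdh15* was called with a log2 fold change of -1.72 (limma, adjusted p = 0.00518), and without wild-type basal 1 it was -0.61 (limma, adjusted p = 0.262). *Cdh23*, the upper part of the link, was 3.35 and 1.74 in the wild-type against 1.85 and 0.445 in the homozygous libraries, so that its groups overlapped and its log2 fold change was -0.77 with an SE of 0.44. The link genes thus both had lower homozygous means, 45% of the wild-type mean for *Cdh23*, without a call for either.

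*Lhfpl5* was 11.3 and 7.57 in the wild-type against 2.82 and 4.84 in the homozygous basal libraries, and *Myo7a*, the motor of the upper link complex, was 4.77 and 5.09 against 3.42 and 2.19. Groups did not overlap for either gene, and homozygous means were 40.7% and 56.9% of the wild-type means. *Tmie*, a small membrane protein gene of the channel complex, was 2.73 and 6.77 in the wild-type against 4.17 and 2.34 in the homozygous libraries, and the groups overlapped. *Cib2* was 50 and 16.3 in the wild-type against 28.5 and 35.6 in the homozygous libraries, with nearly equal means of 33.1 and 32. The *Cib2* log2 fold change of 0.15 had an SE of 0.52, wide enough that a moderate change could not have been detected. It turned to -0.64 without wild-type basal 2, as the *Tmie* value of -0.37 turned to 0.16.

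Values of 6 of the 9 genes were lower in each homozygous than in each wild-type basal library, where this held for 27.8% of all genes (54% did not overlap in one direction or the other, 26.2% being above), and the 6 were *Tmc1*, *Lhfpl5*, *Pcdh15*, *Ush1c*, *Myo7a* and *Loxhd1*. Lower values at an unadjusted p under 0.05 were found for the same 6 genes, beside 16% of all genes. The median log2 fold change was -1.12 over the 9 genes and -0.021 over all genes. Of the 16 hair cell markers, 5 were called lower in the basal turn (*Pou4f3*, *Gfi1*, *Otof*, *Cabp2* and *Espn*), beside 1.76% of all genes. None was called higher, and the median log2 fold change of the 16 markers was -2.06. Fewer hair cells, less RNA per hair cell and a different tissue content of the pieces cannot be told apart in such bulk RNA. By immunofluorescence at P14, the study counted hair cells in the apical, middle and basal turns. It reported them as intact in homozygotes, with no significant difference from wild-type. Of 10 supporting cell markers, 3 were called lower and 1 (*Hey2*) higher in the basal turn, beside 1.76% and 2.53% of all genes. Their sum, 2330 and 476 in the wild-type against 50.8 and 35.9 in the homozygous basal libraries, was in the wild-type mostly *Ceacam16*, the gene of a tectorial membrane protein, with 2270 and 397 against 10.1 and 1.02. *Hey2*, a transcription factor gene, was 2.67 and 3.52 against 11.7 and 13.2.

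**Figure D3:**
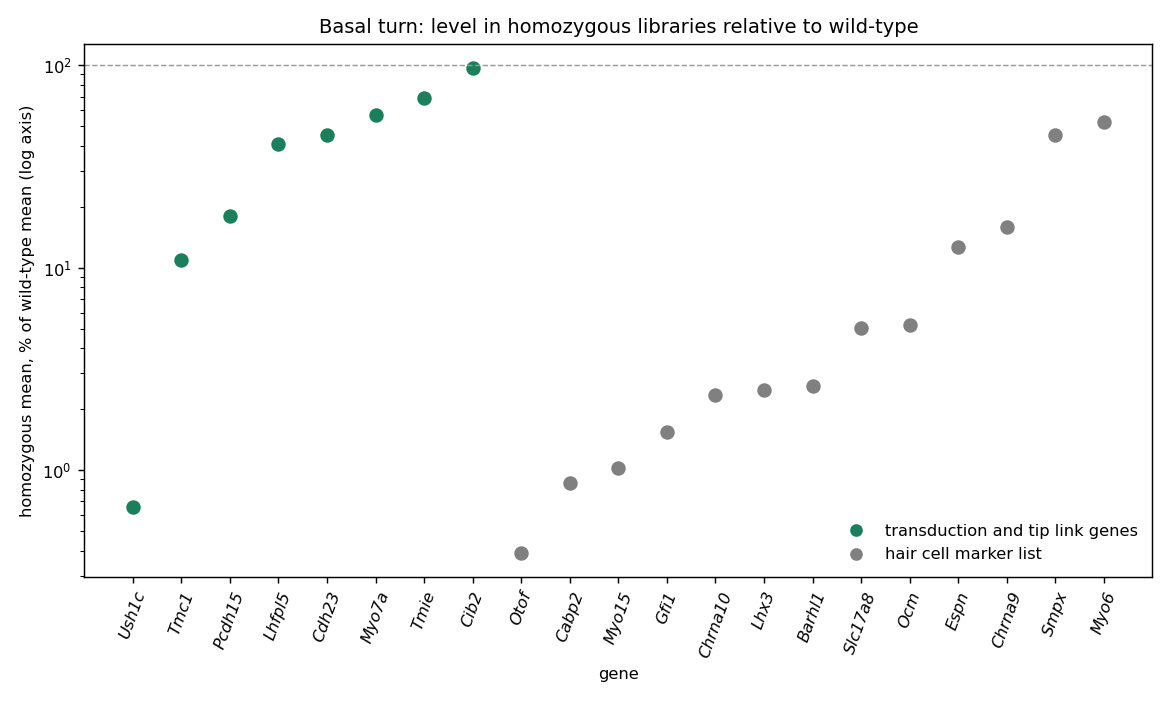
Mean scaled FPKM of the 2 homozygous basal libraries as a percentage of the mean of the 2 wild-type basal libraries (log axis) for 8 of the genes and for 13 of the hair cell markers, 1 point per gene, with a dashed line at 100. *Tmc2*, *Loxhd1* and the markers *Pou4f3* and *Slc26a5*, listed at 0 in a homozygous basal library, are left out, and the 8 genes run from 0.658% (*Ush1c*) to 96.6% (*Cib2*).

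The 10 genes did not share 1 ratio in the basal turn. Homozygous means ran from 0.658% (*Ush1c*) to 96.6% (*Cib2*) of the wild-type means for the 8 genes that were above 0 in both homozygous basal libraries. The percentages of the 14 hair cell markers of which the same held had a median of 3.81%, from 0.391% for *Otof* upwards. *Myo6*, a myosin gene with a homozygous mean at 52.6% of the wild-type mean, and *Smpx* lay well above that median.

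In the apical turn none of the 9 genes was called, where 0.179% of all genes were. Lower values at an unadjusted p under 0.05 were found for 5 genes (*Lhfpl5*, *Pcdh15*, *Cdh23*, *Ush1c* and *Myo7a*), beside 9.03% of all genes. Every gene of the 9 had groups that did not overlap, with *Tmie* above and the other 8 below wild-type, where 59% of all genes did not overlap in one direction or the other and 32.1% were below and 26.9% above. The median log2 fold change was -0.94 over the 9 genes, -0.65 over the 16 hair cell markers and -0.026 over all genes. The 8 lower genes had homozygous means between 32% (*Cdh23*) and 63.2% (*Tmc1*) of the wild-type means.

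*Cdh23* was 5.87 and 5.59 scaled FPKM in wild-type apical libraries and 2.13 and 1.54 in homozygous ones, with the lowest log2 fold change of the turn, -1.25 with an SE of 0.44 (limma, adjusted p = 0.213). *Pcdh15*, its partner in the link, was 5.56 and 6.35 against 3.02 and 1.93. Of the channel genes, *Lhfpl5* was 21.5 and 21.6 against 11.2 and 9.1, a log2 fold change of -1.02 with an SE of 0.41. The wild-type repeats lay close together for all of these, and the homozygous repeats further apart.

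*Cib2* was 59.9 and 63.6 in wild-type apical and 33.4 and 35.7 in homozygous apical libraries, and *Tmc1* was 9.14 and 10.1 against 6.98 and 5.16. At the upper end of the link *Ush1c* was 57.1 and 59.6 against 39.6 and 21.8, and *Myo7a* was 13.9 and 13.6 against 8.06 and 5.5. *Loxhd1* was 8.22 and 7.89 against 5.75 and 2.81. *Tmie* alone of the 9 was higher, at 5.08 and 4.99 in wild-type against 6.91 and 8.52 in homozygotes, a log2 fold change of 0.52 with an SE of 0.38 (limma, adjusted p = 0.538). *Als2cl*, which overlaps it on the other strand, was 4.8 and 5.11 against 10.9 and 7.76 there.

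**Figure D4:**
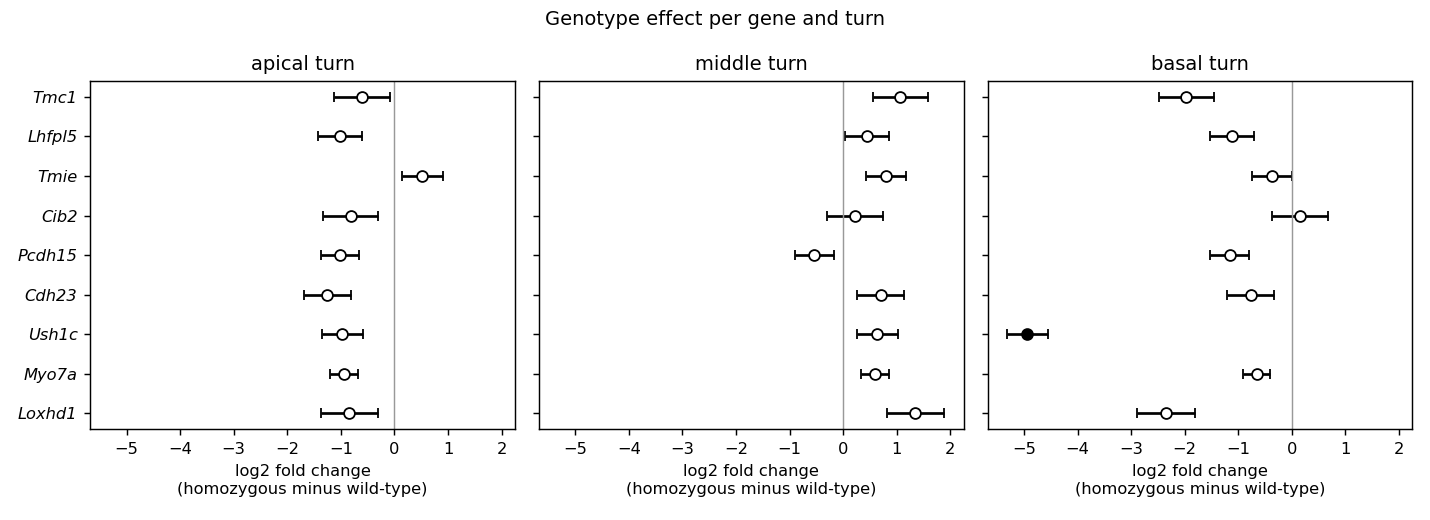
Log2 fold change of scaled FPKM + 1, homozygous minus wild-type, for the 9 tested genes in each turn (points, with bars of 1 SE from the limma fit over 12 libraries). The filled point marks the 1 called value, *Ush1c* in the basal turn at -4.94, and open points were not called.

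In the middle turn 8 of the 9 genes, all but *Pcdh15*, had log2 fold changes above 0, and none was called, where 0.179% of all genes were. Higher values at an unadjusted p under 0.05 were found for *Myo7a* and *Loxhd1*, 2 of the 9, beside 12.9% of all genes. The median log2 fold change was 0.64 over the 9 genes, 0.65 over the hair cell markers and 0.039 over all genes. *Tmie*, *Myo7a* and *Loxhd1* were higher in each homozygous than in each wild-type library, where this held for 31.3% of all genes, and *Pcdh15* lay below, where 28.2% did (59.5% in either direction).

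*Loxhd1* was 0.265 and 1.86 scaled FPKM in wild-type middle libraries and 2.68 and 5.4 in homozygous ones (log2 fold change 1.35, SE 0.54, limma, adjusted p = 0.161). *Tmc1* was 0.52 and 4.14 against 3.6 and 6.53, which overlapped. *Ush1c* was 11.8 and 18.6 against 16.6 and 33.7 and overlapped as well. Wild-type middle 1 held the lower wild-type value of all of these, and it was the library with the highest Schwann cell and central glia sums.

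*Lhfpl5* was 4.26 and 11.2 in the wild-type against 7.39 and 13.2 in the homozygous middle libraries, *Cib2* was 16 and 42.8 against 27.5 and 34.7, and *Cdh23* was 0.549 and 2.27 against 1.91 and 3.58. Without wild-type middle 1 the log2 fold changes of *Lhfpl5* (0.44) and *Cib2* (0.22) turned to -0.17 and -0.46. *Myo7a* was 2.37 and 4.35 against 5.22 and 5.56, and *Tmie* was 4.69 and 2.65 against 5.74 and 8.3. *Pcdh15* differed from the rest, with 4.04 and 2.73 in wild-type against 1.58 and 2.47 in homozygotes, a log2 fold change of -0.54 with an SE of 0.36 (limma, adjusted p = 0.38). Its mean was lower in homozygotes in each of the 3 turns.

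Whether the genotype difference itself differed between turns was tested with the interaction terms of the fit. Between the basal and the middle turn it differed for *Ush1c*, by -5.58 on the log2 scale with an SE of 0.53 (limma, adjusted p = 0.0015). It was the 1 gene called of the 9, where 8.91% of all genes were called and 2.58% were called lower. The differences of *Loxhd1* (-3.71, SE 0.76, limma, adjusted p = 0.0104) and *Tmc1* (-3.05, SE 0.74, limma, adjusted p = 0.0202) missed the threshold. Values were below 0 for all 9 genes, from -5.58 to -0.08 with a median of -1.47, beside a median of -0.121 over all genes, and 6 of the 9 were lower at an unadjusted p under 0.05, beside 19.5% of all genes. *Cib2* was nearest 0, and its sign changed when single libraries were left out. Of the 16 hair cell markers 9 were called lower in this comparison.

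Between the basal and the apical turn the genotype difference of *Ush1c* was -3.98 (limma, adjusted p = 0.00837), the 1 call of the 9 genes beside 0.796% of all genes. This call was lost when any single library other than wild-type basal 2 was left out (adjusted p up to 0.0537), and with the replicate number as a block. Between the middle and the apical turn no gene of the 9 was called and no gene at all was (0 of 16215), though 5 of the 9 were higher at an unadjusted p under 0.05, beside 5.22% of all genes. Averaged over the turns, *Ush1c* was lower in homozygotes by a log2 fold change of -1.76 (limma, adjusted p = 0.00724), 1 call of 9 beside 0.376% of all genes, and this call held only when homozygous middle 2 or wild-type basal 2 was the library left out, among the 12 fits that each left out 1. It too was lost with the replicate number as a block.

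Along the wild-type cochlea, the 9 genes had lower values in the middle than in the apical turn, from -2.25 (*Loxhd1*) to -0.41 (*Tmie*) on the log2 scale. None was called, where 0.0863% of all genes were, and 7 of the 9 were lower at an unadjusted p under 0.05, beside 11.7% of all genes. *Myo7a* came nearest the threshold with a log2 fold change of -1.79 and an SE of 0.26 (limma, adjusted p = 0.0283), and it was called when libraries were weighted. Basal values were lower than apical ones too, with a median log2 fold change of -0.96, no call (0.0863% of all genes called) and 3 of the 9 lower at an unadjusted p under 0.05, beside 12.1% of all genes.

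Within homozygotes the drop lay between the middle and the basal turn. *Ush1c* fell from 16.6 and 33.7 scaled FPKM in the middle turn to 0.39 and 0.102 in the basal turn, a log2 fold change of -4.32 with an SE of 0.38 (limma, adjusted p = 0.00287). It was the 1 called gene of the 9, where 4.66% of all genes were called, and 7 of the 9 were lower at an unadjusted p under 0.05, beside 17.7% of all genes. Against the homozygous apical turn its log2 fold change was -4.62 (limma, adjusted p = 0.00265), again the 1 call of the 9 beside 4.06% of all genes, with 7 of the 9 lower at an unadjusted p under 0.05 beside 16.4% of all genes. *Tmc1*, *Loxhd1*, *Pcdh15* and *Myo7a* had log2 fold changes of -2.20, -2.34, -1.26 and -1.03 in that comparison and adjusted p-values between 0.0198 and 0.0409. The *Ush1c* call was lost without homozygous basal 2 or either wild-type apical library in both comparisons, without homozygous middle 1 in the first, and without either homozygous apical library in the second. Homozygous middle and apical libraries were close, with log2 fold changes from -0.30 to 0.37 for the 9 genes and no call (0% of all genes called). None of the 9 was lower at an unadjusted p under 0.05, beside 1.14% of all genes.

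Because marker sums of the middle and basal pieces lay on opposite sides, the groups were also compared crosswise. Homozygous middle minus wild-type basal gave values from -0.62 to 0.56 with a median of 0.08, no call (0.0802% of all genes called) and none of the 9 at an unadjusted p under 0.05, beside 6.98% of all genes. Homozygous basal minus wild-type middle gave a median of -0.76 and 1 call of the 9, beside 0.117% of all genes. That call was *Ush1c*, at -3.68 (limma, adjusted p = 0.00659), and it was lost when any 1 of the 4 apical, 2 wild-type middle or 2 homozygous basal libraries was left out.

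The 9 genes varied together to different degrees. As a description over the 12 libraries, which share turns, genotypes and tissue composition, Pearson's r with the mean z-score of the 16 hair cell markers on the log2 scale was 0.98 for *Loxhd1*, 0.96 for *Tmc1*, 0.92 for *Lhfpl5* and *Ush1c*, and 0.89 for *Myo7a*. It was 0.78 for *Cdh23*, 0.68 for *Pcdh15* and 0.47 for both *Cib2* and *Tmie*. Between genes, r was highest for *Tmc1* and *Lhfpl5* (0.95) and lowest for *Cib2* and *Tmie* (-0.26). *Tmie* had its highest r with the 6 markers of the stria vascularis (0.86), the epithelium that secretes endolymph. Stria markers summed to 325 and 919 in homozygous apical and to 372 and 712 in homozygous middle libraries, and to 49 and 60 in wild-type apical and 72.2 and 31.4 in wild-type middle libraries. They were 41.4 and 645 in wild-type basal libraries, where *Tmie* was 2.73 and 6.77, and 280 and 36.9 in homozygous basal libraries, where it was 4.17 and 2.34. *Cib2* had an r of -0.87 with 6 bone markers.

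The mean z-score of the 9 genes was highest in the wild-type apical libraries (1.16 and 1.20) and lowest in the homozygous basal libraries (-1.15 and -1.35), followed by wild-type middle 1 (-0.90). Among the 14623 genes that averaged at least 1 scaled FPKM, those with the highest Pearson's r with this mean over the 12 libraries included *Cln6*, *Ccdc85c*, *Barhl1*, *Ikzf2*, *Dytn*, *Otud3*, *Socs6*, *1700001K23Rik* and *Vinac1*, with r from 0.974 to 0.968. *Barhl1* and *Ikzf2* encode transcription factors of hair cells. *Barhl1* was 2.45 and 2.52 in wild-type apical and 0.0344 and 0.0242 in homozygous basal libraries.

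Further genes of stereocilia links and of the transduction machinery were taken as a list of 14, of which 11 were tested. In the apical turn, where 0.179% of all genes were called, 1 was called lower, *Clrn2*, which encodes a clarin of the hair bundle. It was 10.1 and 10.6 scaled FPKM in wild-type and 1.44 and 0.931 in homozygous apical libraries (log2 fold change -2.39, SE 0.27, limma, adjusted p = 0.0088). None of the 11 was called in the middle or basal turn, where 3 and 5 of them had an unadjusted p under 0.05 beside 25.4% and 32.4% of all genes. The list's medians were -0.45, -0.13 and -0.51 in the apical, middle and basal turns.

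*Tomt*, whose product carries TMC proteins towards the bundle, was 4.48 and 4.49 in the wild-type against 1.02 and 0.978 in the homozygous basal libraries, with a log2 fold change of -1.46 and an SE of 0.40 (limma, adjusted p = 0.0371). *Strc*, which encodes stereocilin of the horizontal top connectors, was called for its genotype difference between the basal and middle turns, -3.68 (limma, adjusted p = 0.00284). It was the 1 gene of the 11 called there, where 2.58% of all genes were called lower. It was 0.0455 and 0.352 in wild-type middle and 4.81 and 8.84 in homozygous middle libraries, 0.608 and 1.92 in wild-type basal and 0.0671 and 0.0765 in homozygous basal libraries. The calcium pump gene *Atp2b2* and *Myo1c*, the most abundant of the list, were not called in any turn.

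Paralogues of the 10 genes were a list of 16, of which 15 were in the table and 9 were tested. None was called in a turn, and 3, 5 and 5 of the 9 had an unadjusted p under 0.05 in the apical, middle and basal turns, beside 16.4%, 25.4% and 32.4% of all genes. The genotype difference between the basal and middle turns was called higher for *Lhfpl3* (7.15) and *Lhfpl4* (4.96) and lower for *Cib1* (-1.60). Of all genes, 6.33% were called higher and 2.58% lower in that comparison. *Lhfpl3*, a tetraspan family member like *Lhfpl5*, was 33.7 and 45.9 in wild-type middle and 45.4 and 31.5 in homozygous basal libraries, and 5.55 and 0.393 in homozygous middle and 0.451 and 8.19 in wild-type basal libraries, an order shared with the neuron markers. *Tmc4* and *Tmc6* were the most abundant TMC paralogues, with means of 12.4 and 9.99 over the 12 libraries beside 4.8 for *Tmc1*.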

How the data were processed

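Cochleae of P14 mice were cut into apical, middle and basal turns, and their total RNA was sequenced by the authors as paired-end reads. Per the submitters' processing notes and the methods of the study, reads were cleaned with fastp 0.20.0 and aligned to mm10 with STAR 2.7.3a, uniquely mapped reads were kept, and FPKM were calculated with StringTie 2.0. The annotation release and the use of strand are not given in the sources used here. The deposited FPKM values of 37432 genes in 12 libraries were used as they stand, with no counts. No steps of whole reads were found in them (the smallest value above 0 was 1e-06), so depth is unknown.

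FPKM were divided by a factor per library (median ratio to the geometric mean over 11552 genes). The test covered the 16215 genes with 1 FPKM or more in 2 libraries, on log2(scaled FPKM + 1) with limma 3.58.1 in R 4.3.3, 1 mean per group over all 12 libraries, an intensity trend and Benjamini-Hochberg adjustment. This was tested on simulated data first. A call needed an adjusted p under 0.01 and a change over 2-fold. In all, 63 gene names stood on more than 1 identifier, none of them a name of the 10 genes. Gene models came from GENCODE M21, matched by identifier, and promoters from RefSeq. Figures were drawn with matplotlib 3.10.9.

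The 10 genes and all gene lists were chosen with earlier results of these data known. Genes named in the text are the 10, Gjb2, genes overlapping their exons, the called and most abundant genes of the lists, and genes among the 10 most like their mean. Some items that these rules would name are not reported here. Cib3, Tmc5, Tomt, Myo6 and Smpx were chosen after their values were seen.

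Alternatives were a pseudocount of 0.1, no filter or one of 5 FPKM, FPKM as deposited, quantile normalization, each library left out, the replicate number as a block, library weights, no trend, an adjusted p of 0.05, and the libraries of 1 turn alone. Leaving out wild-type middle 1 and wild-type basal 2 together was added after seeing the data.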

Additional observations from a re-analysis of the deposited data

Results flagged for a closer look

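The genotype difference of *Ush1c* was not the same in all turns, by the test of the difference itself. It was lower in the basal than in the middle turn (-5.58 on the log2 scale, limma, adjusted p = 0.0015) and lower in the basal than in the apical turn (-3.98, limma, adjusted p = 0.00837). The latter call was lost without a filter, with the replicate block, with library weights, and when any single library other than wild-type basal 2 was left out (adjusted p up to 0.0537). Homozygous libraries were below wild-type in 2 of 2 basal and 2 of 2 apical libraries, while the groups overlapped in the middle turn. Hair cell markers moved the same way, with 9 of 16 called lower in the basal-minus-middle comparison, beside 2.58% of all genes. The part of these markers in the *Ush1c* values was not tested.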

How the results depend on the processing

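The share of all genes is not given for the settings below, so the counts only follow the calls of the 9 genes. Of the 9 tested genes, 1 (*Ush1c*) was called in the basal turn. This count was 2 at a pseudocount of 0.1 (with *Loxhd1*), 3 at an adjusted p of 0.05 (with *Loxhd1* and *Tmc1*), 3 without wild-type middle 1 and wild-type basal 2 (with *Tmc1* and *Pcdh15*), and 0 with the basal libraries alone, where 5 genes had an unadjusted p under 0.05. With 1 library left out it was 1 to 2, and *Ush1c* kept its call, at log2 fold changes from -5.14 to -4.75 (limma, adjusted p from 0.00094 to 0.00695). For the difference between basal and middle turns the count of 1 became 2 at a pseudocount of 0.1, with FPKM as deposited and with quantile normalization (*Loxhd1* each time), 4 at an adjusted p of 0.05, and 1 to 2 with a library left out.

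The mean over turns and the basal-minus-apical difference went from 1 call to 0 without a filter and with the replicate block, and the latter also with library weights. With a library left out they gave 0 to 2 and 0 to 1. Homozygous basal minus apical gave 2 at a pseudocount of 0.1, 5 at an adjusted p of 0.05, 4 without the pair of libraries and 0 to 3 with 1 left out. Homozygous basal minus middle gave 2, 3, 3 and 0 to 2 in the same order. Homozygous basal minus wild-type middle gave 0 without a filter and with the block, and 0 to 1 with a library left out. Wild-type middle minus apical went from 0 to 1 (*Myo7a*) with library weights and at an adjusted p of 0.05. The other comparisons stayed at 0 calls in every setting run.

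Directions turned for values that in the main fit ran from -0.48 (*Cdh23*, homozygous basal minus apical) to 0.44 (*Lhfpl5*, middle turn). Without the pair of libraries *Lhfpl5* (-0.17) and *Cib2* (-0.46) turned in the middle turn, and *Tmie* (0.16) and *Cib2* (-0.64) in the basal turn. With 1 library left out the ranges were -0.17 to 1.05 and -0.46 to 0.91 for the first, and -0.91 to 0.16 and -0.64 to 0.92 for the second. They were -0.86 to 0.69 for *Cib2* in basal minus middle, -0.70 to 0.36 for *Tmie* in wild-type basal minus apical, -0.25 to 0.04 for *Cib2* and -0.97 to 0.02 for *Cdh23* in homozygous basal minus apical, and -0.79 to 0.19 for *Ush1c* in homozygous middle minus apical. The cause of these changes was not tested. Correlations of deviations between same-numbered libraries ran from -0.43 to 0.45. With 2 libraries a group they cannot decide whether the library numbers pair the samples. The replicate block left *Ush1c* called in the basal turn (-4.94) and changed no call other than the 3 named. FPKM as deposited shifted the median of all genes by 0.135 in the middle turn and by -0.127 in basal minus middle. With 2 libraries a group and unknown depth, differences of the size seen for *Cib2* and *Tmie* could not be detected.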
